A study of Sus scrofa with 6 samples.

Results

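Aminoacyl-tRNA synthetases are the enzymes that join each amino acid to its transfer RNA, and their transcripts were examined here in the skeletal muscle of UCP1 knock-in pigs. The members were taken by gene symbol: a 1-letter amino acid code followed by ARS, ARS1 or ARS2, together with *EPRS1*, *FARSA* and *FARSB*. This gave 36 of the 30476 genes in the deposited count table, of which 19 were cytosolic forms and 17, those whose symbol ends in 2, were mitochondrial forms. *FARSB*, which encodes the beta subunit of the cytosolic phenylalanine enzyme, had no identifier matched to it and was not analysed here. All 36 reached 10 counts in at least 3 of the 6 pigs and entered the test, and 35 of them had at least 10 counts in every pig. *SARS2*, the mitochondrial serine enzyme, met this minimum in exactly 3 pigs, with 36 counts in UCP1 KI pig 2, 18 in WT pig 1 and 59 in WT pig 2.

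RNA was sequenced from a back muscle, the longissimus dorsi, of 3 UCP1 KI pigs and 3 WT pigs, all aged 6 months. The UCP1 KI pigs carried an insertion of UCP1, the uncoupling protein of brown fat, that was made with CRISPR/Cas9 and described as specific to adipocytes, so muscle fibres were not the cells in which the inserted gene was meant to act. The sex and litter of the pigs and the promoter of the insertion were not given in the sources used here, and the inserted gene itself was not analysed here. The tissue was bulk muscle, in which fewer cells of a type and less RNA per cell cannot be told apart.

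By way of background, each cytosolic enzyme charges transfer RNAs for the ribosomes of the cytoplasm, and a separate set of nuclear genes encodes the enzymes that are imported into mitochondria to serve the translation of the few proteins made there. *KARS1* and *GARS1* each encode both the cytosolic and the mitochondrial enzyme. Mitochondria lack a glutamine enzyme, and an amidotransferase built from QRSL1, GATB and GATC converts glutamate to glutamine on the transfer RNA instead. Several cytosolic enzymes sit together in the multisynthetase complex on the scaffold proteins AIMP1, AIMP2 and EEF1E1. Many synthetase genes are targets of ATF4, the transcription factor of the integrated stress response, and *WARS1*, the cytosolic tryptophan enzyme, is strongly induced by interferon gamma. The enzymes fall into class I and class II by the fold of their catalytic domain.

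Each library held between 30220951 and 35066624 counts, and 13402 genes were tested. Levels are given in counts per 1000000 (CPM), scaled with edgeR's TMM factors, which ran from 0.781 in WT pig 2 to 1.18 in UCP1 KI pig 2. The 20 most abundant genes took 39.0% to 44.0% of the counts in UCP1 KI pigs and 44.5% to 56.5% in WT pigs, with the highest share in WT pig 2. The muscle genes *ACTA1*, *CKM* and *TNNT3* were abundant in every pig, the lowest value being 4144 CPM for *TNNT3* in UCP1 KI pig 2, and the summed level of these 3 markers ranged from 47521 to 82487 CPM in UCP1 KI pigs and from 65830 to 94095 CPM in WT pigs. A gene was called where edgeR's quasi-likelihood test gave an unadjusted p under 0.05 and the log2 fold change, UCP1 KI against WT, lay above 0.5 or below -0.5. No gene passed an adjusted p of 0.05 in that test (0 of 13402, lowest adjusted p = 0.160), while 1100 had an unadjusted p under 0.05 and DESeq2 gave 127 genes at an adjusted p under 0.05. No synthetase passed after adjustment: their edgeR adjusted p-values ran from 0.583 to 0.991.

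Most synthetase transcripts had a higher fitted level in UCP1 KI muscle, but few passed the limits. Of the 36, 27 had a positive log2 fold change, against 48.7% of all genes tested, and the median was 0.19, against -0.02 over all genes. Without WT pig 1, 21 of 36 were positive and the median was 0.048, against 0.004 over all genes. With scaling by library size alone 33 were positive and the median was 0.46, but the median over all genes also rose, to 0.24. Calls were made for 4 of the 36, all higher in UCP1 KI pigs, where the same limits called 8.19% of all genes and 3.84% in the higher direction. These 4 were also the only members with an unadjusted p under 0.05, against 8.21% of all genes. These were *MARS1* and *VARS1* among the cytosolic forms and *LARS2* and *YARS2* among the mitochondrial forms. In 7 members the 3 UCP1 KI pigs all lay above the 3 WT pigs, and in 0 members did they all lie below, where 15.3% of all genes had groups that did not overlap 7.59% with UCP1 KI pigs above and 7.69% with UCP1 KI pigs below. Those 7 were the 4 called genes together with *GARS1*, *AARS2* and *EARS2*.

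**Figure D1:**
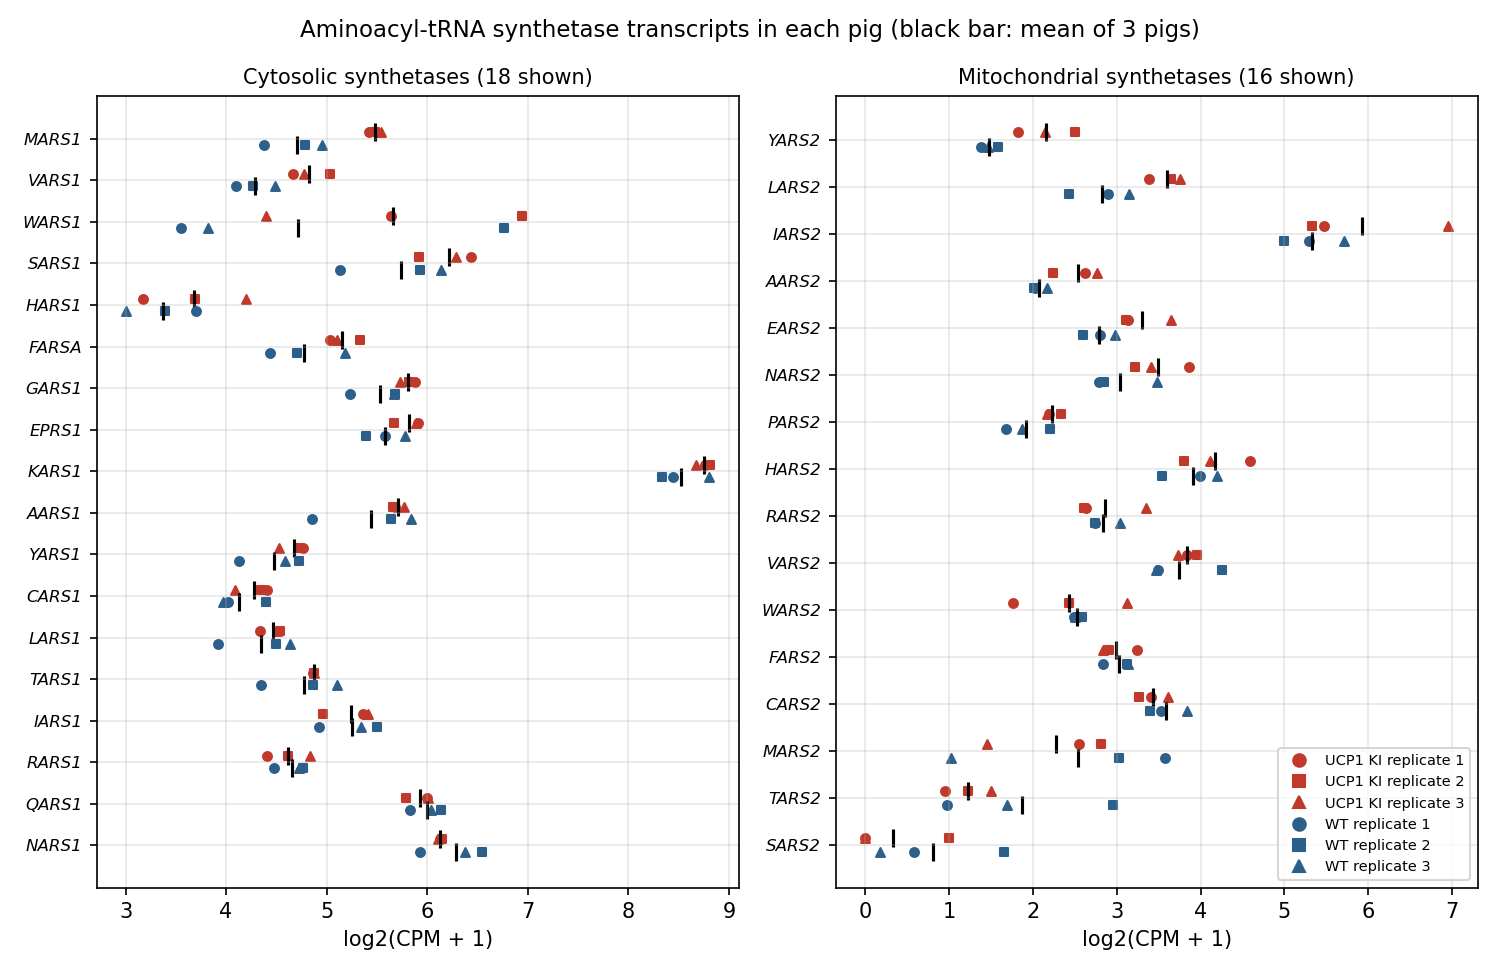
Expression of 34 of the 36 synthetase transcripts in each pig on a log2(CPM + 1) scale, with the cytosolic forms in one panel and the mitochondrial forms in the other. Points are pigs and black bars are the means of the 3 pigs of a group. The called genes *MARS1*, *VARS1*, *LARS2* and *YARS2* show separate groups, as do *GARS1*, *AARS2* and *EARS2*, which were not called. The points of *WARS1* spread over several log2 units in both groups.

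*MARS1* encodes the cytosolic methionine enzyme, a member of the multisynthetase complex that also charges the initiator transfer RNA. It was measured at 41.9, 43.8 and 45.5 CPM in UCP1 KI pigs 1 to 3 and at 19.8, 26.5 and 29.97 CPM in WT pigs 1 to 3. All UCP1 KI pigs lay above every WT pig and close together. The means were 43.7 ± 1.80 CPM (SD, n = 3) and 25.4 ± 5.14 CPM (SD, n = 3), or a 1.72-fold difference by the fit. The log2 fold change was 0.78 (SE 0.23, 95% interval 0.24 to 1.32), with an unadjusted p of 0.0105 and an adjusted p of 0.583 in edgeR. An exact permutation test of this gene, two-sided over the 20 ways of assigning 3 of 6 pigs, gave p = 0.1, which is the smallest that 3 against 3 can give. *MARS1* was called whichever single pig was left out, with a log2 fold change between 0.63 and 0.92. The gene spans 22752405 to 22785509 on chromosome 5 (Sscrofa11.1, RefSeq), a span that overlaps *ARHGAP9* and *DDIT3*. The counting was not stated to use strand, so reads of overlapping genes may not be separable. *DDIT3*, a stress response transcription factor, was at 34.96, 15.2 and 24.2 CPM in UCP1 KI pigs and 20.1, 18.1 and 16.5 CPM in WT pigs, with overlapping groups and a log2 fold change of 0.44 (SE 0.32). *ARHGAP9* did not exceed 2.61 CPM in any pig.

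The other 7 enzymes of the multisynthetase complex did not pass the limits. *EPRS1*, which encodes the fused glutamate and proline enzyme, had a log2 fold change of 0.24 (SE 0.22), and *KARS1*, the lysine enzyme, 0.21 (SE 0.25). The values for leucine (*LARS1*), isoleucine (*IARS1*), arginine (*RARS1*) and glutamine (*QARS1*) lay between 0.09 and -0.07. *KARS1* held between 26.4% and 35.3% of all synthetase counts, not corrected for length, at 433, 447 and 408 CPM in UCP1 KI pigs and 348, 322 and 445 CPM in WT pigs, so WT pig 3 reached the level of the UCP1 KI pigs. *QARS1* was at 63.1, 54.2 and 63.1 CPM in UCP1 KI pigs and 55.7, 69.3 and 64.8 CPM in WT pigs, with overlapping groups and a log2 fold change of -0.07 (SE 0.21, 95% interval -0.57 to 0.42). Over the 8 enzymes of the complex the median was 0.06, 5 were positive and 1, *MARS1*, was called. Over all genes tested, 48.7% were positive and 8.19% were called.

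The free cytosolic enzymes, 11 of the 12 listed being measured, had a median of 0.27. Of these 11, 10 were positive and 1 was called, where 48.7% of all genes were positive and 8.19% were called. The called gene was *VARS1*, the cytosolic valine enzyme, which lies on chromosome 7 from 23886132 to 23899265 and overlaps no other RefSeq gene. *VARS1* was at 24.3, 31.7 and 26.4 CPM in UCP1 KI pigs and 16.1, 18.3 and 21.4 CPM in WT pigs. The groups did not overlap, and WT pig 3 came closest to the UCP1 KI pigs. The means were 27.5 ± 3.78 CPM (SD, n = 3) and 18.6 ± 2.66 CPM (SD, n = 3). The log2 fold change was 0.56 (SE 0.23, 95% interval 0.03 to 1.096), with an unadjusted p of 0.0418 and an adjusted p of 0.603 in edgeR. The call was close to the limits and was lost when any single pig other than WT pig 3 was left out, with values between 0.44 and 0.68.

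*GARS1*, the glycine enzyme of both compartments, was at 57.7, 55.5 and 52.2 CPM in UCP1 KI pigs and 36.6, 50.2 and 50.0 CPM in WT pigs. The groups were separate by a small gap, and the log2 fold change of 0.27 (SE 0.22) did not pass the limits. *SARS1*, the cytosolic serine enzyme, was at 85.6, 59.7 and 77.3 CPM in UCP1 KI pigs and 34.2, 59.9 and 69.5 CPM in WT pigs, giving a log2 fold change of 0.44 (SE 0.31) with overlapping groups. *NARS1*, the asparagine enzyme, had the lowest value of the cytosolic forms. It was at 69.0, 69.9 and 67.7 CPM in UCP1 KI pigs and 59.8, 92.7 and 82.1 CPM in WT pigs, so the UCP1 KI pigs lay within the range of the WT pigs, and its log2 fold change was -0.18 (SE 0.24, 95% interval -0.74 to 0.37). For the remaining free enzymes the log2 fold changes were 0.36 for *FARSA*, the alpha subunit of the phenylalanine enzyme, 0.21 for *AARS1* (alanine), 0.18 for *YARS1* (tyrosine), 0.15 for *CARS1* (cysteine) and 0.07 for *TARS1* (threonine), none of them past the limits. WT pig 1 held the lowest level of 12 of the 19 cytosolic members, and without it the cytosolic median fell from 0.21 to 0.06.

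**Figure D2:**
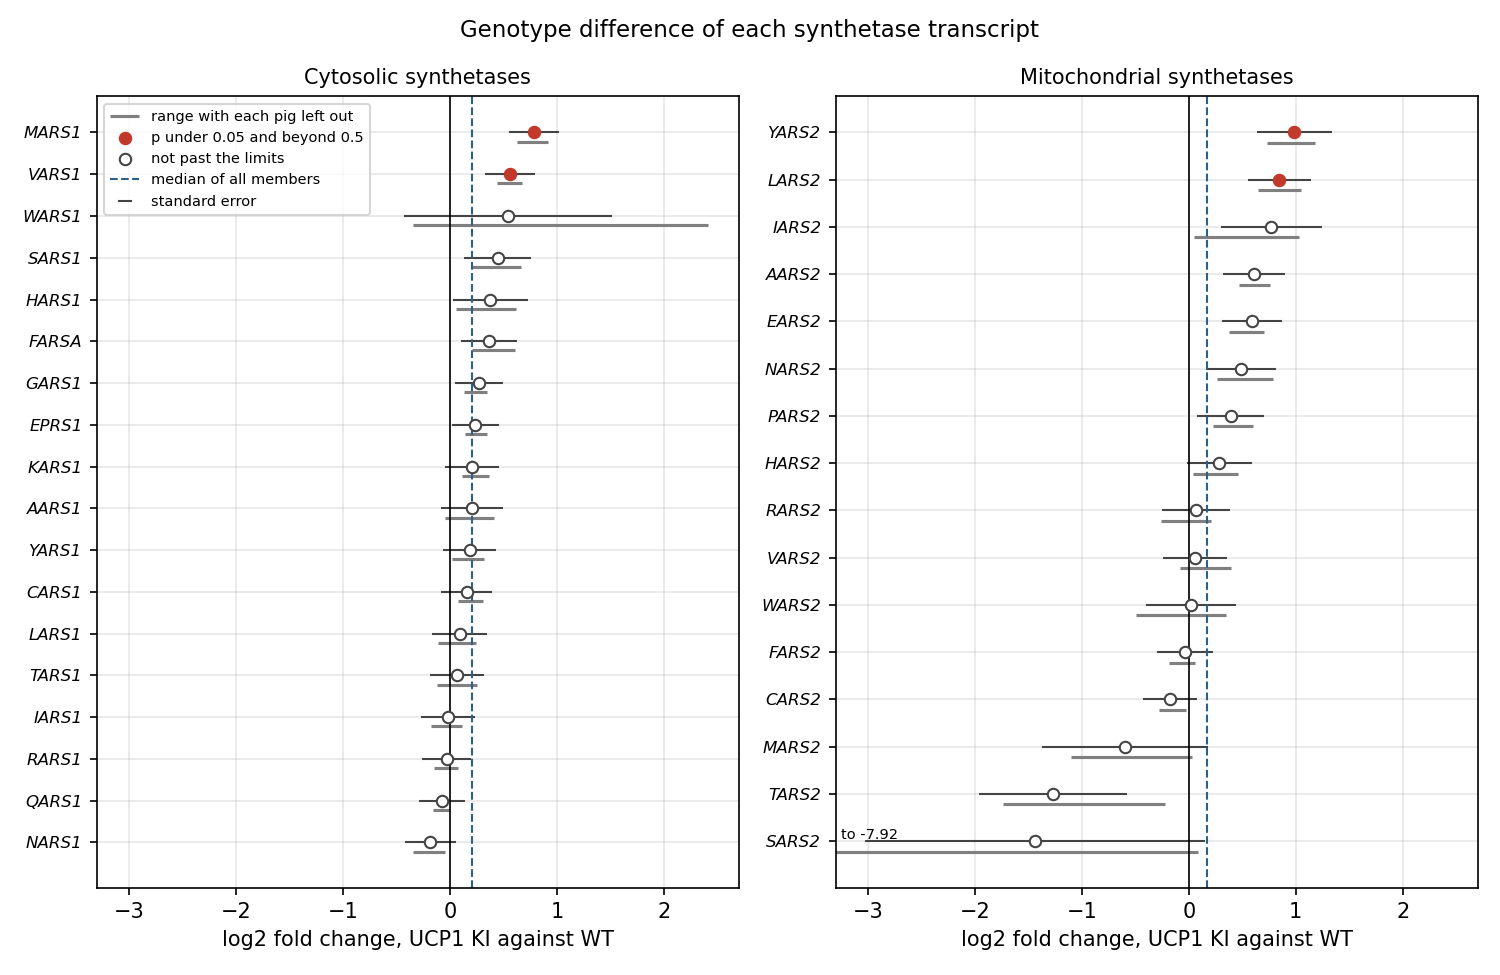
Log2 fold change of 34 synthetases, UCP1 KI against WT, in the edgeR fit, for cytosolic and mitochondrial forms. Thin bars are 1 SE to each side, thick grey bars the range over the fits that left out a pig, dashed lines the median over all members of the compartment, and filled points the called genes. The 4 called genes lie between 0.56 and 0.99, and the bars of *SARS2*, *WARS1*, *MARS2* and *TARS2* are the widest. The lower end of the grey bar of *SARS2* comes from a fit in which both UCP1 KI pigs had 0 counts and is no measured fold.

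The mitochondrial enzymes covered a wider range, from -1.43 to 0.99 on the log2 scale, against -0.18 to 0.78 for the cytosolic forms. *LARS2*, the mitochondrial leucine enzyme, lies on chromosome 13 from 28524778 to 28692327 and overlaps no other RefSeq gene. It was at 9.48, 11.6 and 12.5 CPM in UCP1 KI pigs and 6.42, 4.38 and 7.84 CPM in WT pigs. All 3 UCP1 KI pigs were above all 3 WT pigs. The means were 11.2 ± 1.55 CPM (SD, n = 3) and 6.22 ± 1.74 CPM (SD, n = 3), and the log2 fold change was 0.85 (SE 0.29, 95% interval 0.17 to 1.53). In edgeR the unadjusted p was 0.0212 and the adjusted p 0.583. The call was lost without UCP1 KI pig 2, without UCP1 KI pig 3 or without WT pig 2, with values from 0.65 to 1.05 over the 6 fits that left out a pig.

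*YARS2*, the mitochondrial tyrosine enzyme, had the highest log2 fold change of all 36 members. It was at 2.55, 4.66 and 3.44 CPM in UCP1 KI pigs, from 79, 166 and 130 counts, and at 1.60, 2.01 and 1.77 CPM in WT pigs, from 58, 55 and 53 counts. The WT pigs lay close together and below every UCP1 KI pig. The means were 3.55 ± 1.05 CPM (SD, n = 3) and 1.79 ± 0.206 CPM (SD, n = 3), with a log2 fold change of 0.99 (SE 0.35, 95% interval 0.17 to 1.80). In edgeR the unadjusted p was 0.0234 and the adjusted p 0.583. The call was lost without UCP1 KI pig 2, without WT pig 1 or without WT pig 3, and the value ran from 0.73 to 1.18 over the 6 fits. The span of *YARS2* on chromosome 5, from 41561563 to 41584534, overlaps that of *DNM1L*, the mitochondrial fission factor, which was not analysed here.

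*AARS2* and *EARS2*, the mitochondrial alanine and glutamate enzymes, also had separate groups but did not pass the p limit. *AARS2* was at 5.14, 3.73 and 5.80 CPM in UCP1 KI pigs and 3.09, 3.03 and 3.50 CPM in WT pigs (log2 fold change 0.61, SE 0.29). *EARS2* was at 7.79, 7.66 and 11.5 CPM in UCP1 KI pigs and 5.95, 5.08 and 6.87 CPM in WT pigs (log2 fold change 0.59, SE 0.28). The RefSeq span of *EARS2* overlaps that of *UBFD1*, which was itself called, at 72.0, 100.2 and 106 CPM in UCP1 KI pigs and 48.1, 43.7 and 58.4 CPM in WT pigs (log2 fold change 0.89, SE 0.25). The part of *UBFD1* reads in the *EARS2* value was not tested.

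*IARS2*, the mitochondrial isoleucine enzyme, had the highest mean CPM of the mitochondrial forms, not corrected for length, and its difference rested on a single pig. It was at 43.4, 39.3 and 123.01 CPM in UCP1 KI pigs and 38.1, 30.8 and 51.4 CPM in WT pigs. Only UCP1 KI pig 3 was above the WT range. The log2 fold change was 0.77 (SE 0.47) and fell to 0.05 without that pig. *RAB3GAP2*, which overlaps *IARS2*, had a log2 fold change of -0.003 (SE 0.26). *HARS2*, the mitochondrial histidine enzyme, was at 23.0, 13.0 and 16.3 CPM in UCP1 KI pigs and 14.9, 10.6 and 17.4 CPM in WT pigs (log2 fold change 0.29, SE 0.31). *VARS2*, the mitochondrial valine enzyme, was at 13.3, 14.6 and 12.2 CPM in UCP1 KI pigs and 10.3, 18.2 and 10.04 CPM in WT pigs (log2 fold change 0.06, SE 0.30). Both overlapped between the groups.

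*HARS2* and its cytosolic partner *HARS1* are, by way of background, close in sequence. Reads could be divided between them in counting, so both values are uncertain. Their sequences were not compared here, and such a division of reads was not tested. *HARS1* was at 8.02, 11.9 and 17.3 CPM in UCP1 KI pigs and 12.05, 9.53 and 7.04 CPM in WT pigs (log2 fold change 0.38, SE 0.35). There were 2.87, 1.09 and 0.943 counts of *HARS2* for each count of *HARS1* in UCP1 KI pigs 1 to 3 and 1.24, 1.11 and 2.46 in WT pigs 1 to 3. The ratio was high in 1 pig of each group. The summed level of both genes was 31.0, 24.8 and 33.6 CPM in UCP1 KI pigs and 26.9, 20.1 and 24.4 CPM in WT pigs, which overlapped.

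Among the 17 mitochondrial forms, 3 had fitted values far below 0, and none passed the limits. *SARS2* had 0, 36 and 0 counts in the UCP1 KI pigs, against 18, 59 and 4 in the WT pigs. It was thus highest in pig 2 of each group. Its log2 fold change of -1.43 (SE 1.59) was the lowest of all members and carried the largest error, and it reached 0.09 without WT pig 2. Without UCP1 KI pig 2 both remaining UCP1 KI pigs had 0 counts, so the fitted value there depends on the prior count and is no measured fold. *TARS2*, the mitochondrial threonine enzyme, was at 0.938, 1.35 and 1.83 CPM in UCP1 KI pigs and 0.965, 6.79 and 2.24 CPM in WT pigs. WT pig 2 stood apart, and the log2 fold change of -1.27 (SE 0.69) became -0.22 without it and -1.73, past the limits, without WT pig 1. *MARS2*, the mitochondrial methionine enzyme, was at 4.85, 6.06 and 1.75 CPM in UCP1 KI pigs and 10.9, 7.16 and 1.03 CPM in WT pigs (log2 fold change -0.60, SE 0.78). Pig 3 was the lowest of each group, and the ranges overlapped.

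Further mitochondrial forms had log2 fold changes of 0.49 for *NARS2* (asparagine), 0.39 for *PARS2* (proline), 0.07 for *RARS2* (arginine), 0.02 for *WARS2* (tryptophan), -0.03 for *FARS2* (phenylalanine) and -0.18 for *CARS2* (cysteine). None passed the limits.

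Set side by side, the cytosolic and mitochondrial forms had much the same centre. The median log2 fold change was 0.21 over the 19 cytosolic forms and 0.17 over the 17 mitochondrial forms, a difference of 0.03. Positive values were found in 15 of 19 cytosolic and 12 of 17 mitochondrial members, calls in 2 of each, and separate groups in 3 cytosolic and 4 mitochondrial members, where 8.19% of all genes were called and 15.3% had separate groups. Without *GARS1* and *KARS1*, which serve both compartments, the cytosolic median was 0.18. The sign of the difference of medians did not hold: it was -0.025 when only genes counted 10 times or more in all pigs were kept, and ranged from -0.11 to 0.12 when single pigs were left out. Without WT pig 1 the mitochondrial median was 0.03, and without WT pig 3 it was 0.35.

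The mean of log2(CPM + 1) over the cytosolic forms was 5.39, 5.49 and 5.41 in the UCP1 KI pigs, against 4.88, 5.37 and 5.30 in the WT pigs. UCP1 KI pigs lay above WT pigs by a narrow margin, and WT pig 1 was the lowest. Over the mitochondrial forms it was 2.73, 2.79 and 2.90 in the UCP1 KI pigs, against 2.57, 2.75 and 2.65 in the WT pigs, with overlapping groups. The cytosolic mean minus the mitochondrial mean of the same pig was 2.66, 2.699 and 2.51 in the UCP1 KI pigs, against 2.31, 2.62 and 2.65 in the WT pigs, again overlapping. As a share of all counts, the 36 genes took 0.126%, 0.164% and 0.162% in the UCP1 KI pigs, against 0.105%, 0.0951% and 0.120% in the WT pigs. That share also moves with the part of the library held by the 20 most abundant genes, which was larger in every WT pig.

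**Figure D3:**
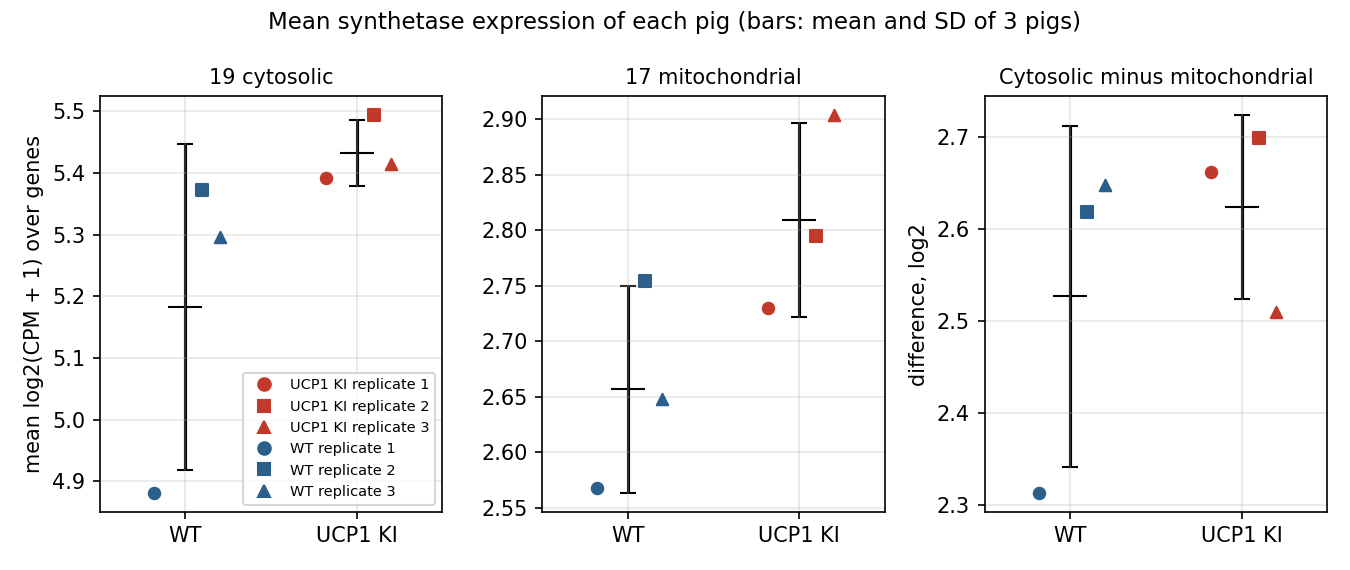
Mean log2(CPM + 1) over the 19 cytosolic and the 17 mitochondrial synthetases in each pig, and the difference of both means within a pig. Points are pigs, bars the mean and SD of 3 pigs. The cytosolic means do not overlap between groups (4.88 to 5.37 in WT, 5.39 to 5.49 in UCP1 KI), while the mitochondrial means and the difference do.

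Each mitochondrial form was then set against the cytosolic enzyme for the same amino acid, *EPRS1* serving for both *EARS2* and *PARS2*. Of these 17 pairs, 9 had positive log2 fold changes in both partners and none had negative values in both. In 5 the cytosolic value was positive and the mitochondrial one negative, in 3 the reverse held, and the mitochondrial value was the larger in 9 of 17. For leucine, the log2 ratio of *LARS2* to *LARS1* was -1.02, -0.94 and -0.80 in the UCP1 KI pigs, against -1.14, -2.29 and -1.597 in the WT pigs. The ratio was higher in every UCP1 KI pig, by a small margin over WT pig 1 (exact permutation p = 0.1, two-sided, the smallest possible). For tyrosine, the log2 ratio of *YARS2* to *YARS1* was -3.34, -2.45 and -2.67 in the UCP1 KI pigs, against -3.35, -3.64 and -3.67 in the WT pigs, so UCP1 KI pig 1 and WT pig 1 were nearly equal. For glutamate, the log2 ratio of *EARS2* to *EPRS1* was -2.91, -2.699 and -2.34 in the UCP1 KI pigs, against -2.97, -2.999 and -2.97 in the WT pigs, with a narrow gap. For methionine, the log2 ratio of *MARS2* to *MARS1* was -3.10, -2.85 and -4.68 in the UCP1 KI pigs, against -0.86, -1.88 and -4.81 in the WT pigs, with overlapping groups and pig 3 the lowest of each.

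**Figure D4:**
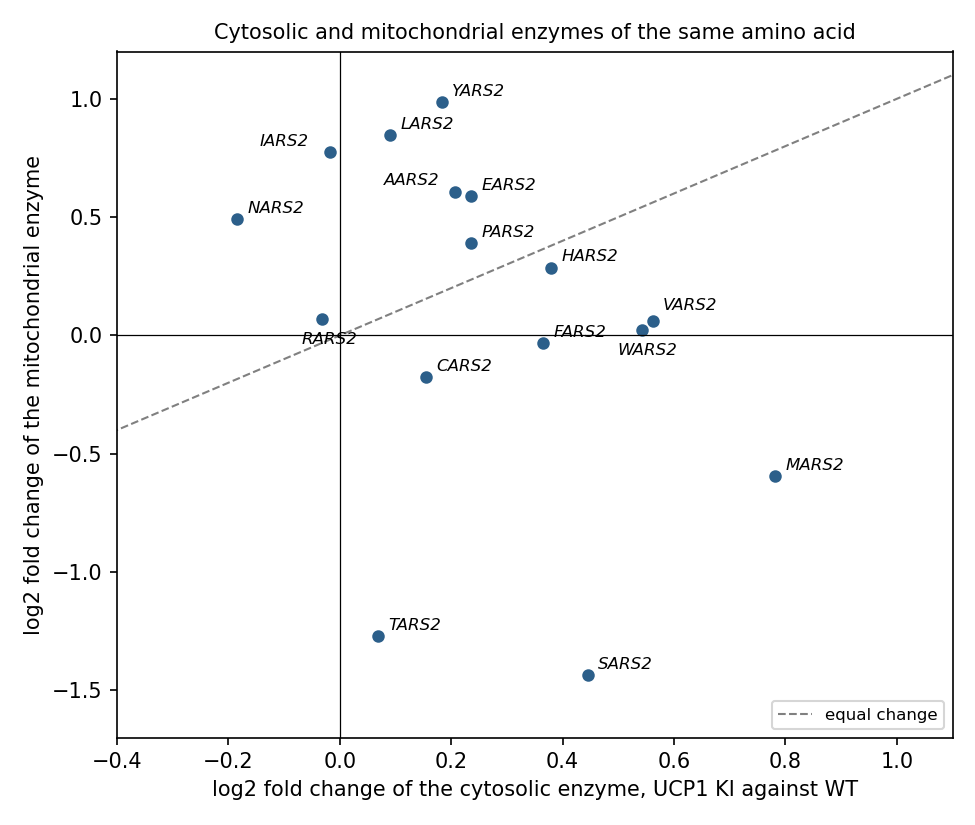
Log2 fold change of the mitochondrial enzyme against that of the cytosolic enzyme for the same amino acid, UCP1 KI against WT, for 16 of the 17 pairs, each point labelled with its mitochondrial gene. The dashed line marks equal change. *LARS2* and *YARS2* lie above the line, with partners at 0.09 and 0.18, and *MARS2*, *SARS2* and *TARS2* lie below it.

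By structural class, with the fused *EPRS1* counted in class I alone, the 19 class I enzymes had a median of 0.15 and the 17 measured class II enzymes a median of 0.21. The 4 calls were of class I enzymes, where 8.19% of all genes were called. The difference between the classes was not tested.

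*WARS1* was the most variable cytosolic member. It was at 49.0, 122 and 20.1 CPM in UCP1 KI pigs and 10.7, 107 and 13.1 CPM in WT pigs. Pig 2 of each group was high and the groups overlapped over nearly their whole range. The log2 fold change of 0.54 (SE 0.97, 95% interval -1.71 to 2.79) became -0.34 without UCP1 KI pig 2 and 2.42, past the limits, without WT pig 2. Its mitochondrial partner *WARS2* was at 2.39, 4.38 and 7.71 CPM in UCP1 KI pigs and 4.60, 5.003 and 4.67 CPM in WT pigs. Of 7 interferon response genes listed, 4 (*CXCL10*, *GBP1*, *IDO1* and *IRF1*) had the same 3 highest pigs by CPM as *WARS1*, namely UCP1 KI pigs 1 and 2 and WT pig 2. For *IDO1* this order is not firm, since WT pigs 2 and 3 had 4 counts each. *GBP1*, a guanylate-binding protein, was at 57.0, 187 and 10.3 CPM in UCP1 KI pigs and 11.2, 164 and 18.6 CPM in WT pigs. None of the 6 interferon response genes tested was called. The summed level of 4 leukocyte markers was 20.9, 32.4 and 8.50 CPM in UCP1 KI pigs and 10.3, 18.9 and 8.18 CPM in WT pigs, highest in the same 3 pigs. Of these markers *CD3E*, of T cells, was called higher but was lowest in WT pig 2, at 0.621 CPM, where *CD14*, of monocytes, gave 9.28 CPM of the sum. Their part in the *WARS1* values was not tested.

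**Figure D5:**
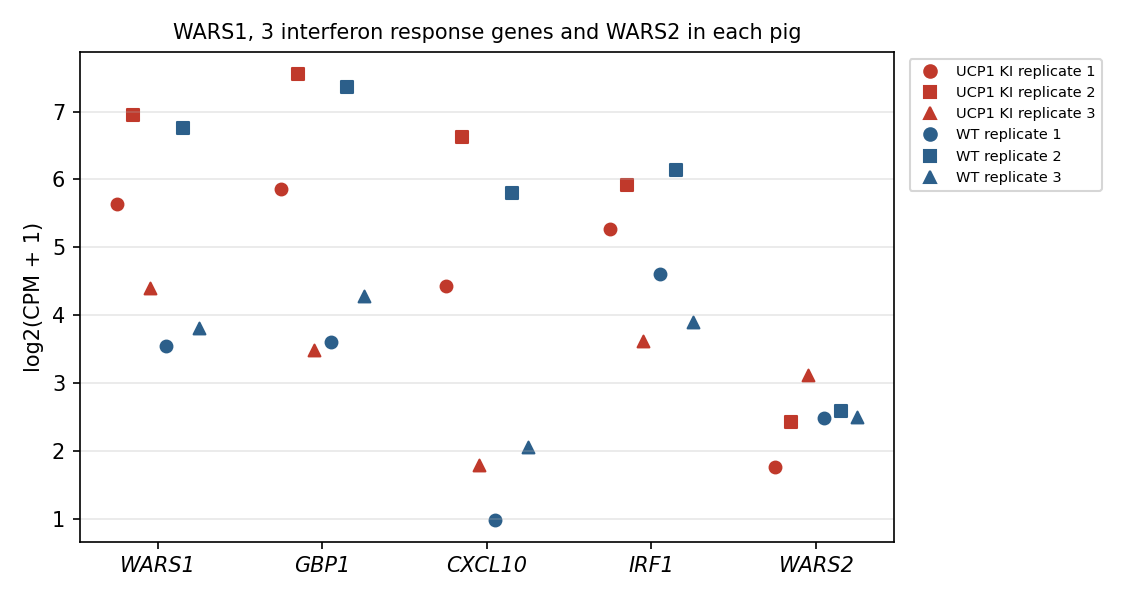
Log2(CPM + 1) of *WARS1*, 3 interferon response genes and *WARS2* in each pig. Points are pigs, coloured by group and shaped by replicate. UCP1 KI pig 2 and WT pig 2 are the highest for *WARS1* and *GBP1*, and *WARS2* does not show this order.

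The scaffold proteins of the multisynthetase complex were measured as 3 genes. *EEF1E1*, the smallest of them, was at 4.33, 4.80 and 4.40 CPM in UCP1 KI pigs and 2.12, 2.99 and 3.07 CPM in WT pigs. The groups did not overlap, and the gene was called higher (log2 fold change 0.72, SE 0.29, edgeR unadjusted p = 0.0392, adjusted p = 0.603). *AIMP1* and *AIMP2* had log2 fold changes of 0.12 (SE 0.23) and 0.23 (SE 0.42) and were not called.

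Of the mitochondrial amidotransferase and formylation genes, 3 of 4 were measured and 1 was called, in the direction opposite to the called synthetases. *GATC*, the smallest amidotransferase subunit, was at 5.47, 2.41 and 3.50 CPM in UCP1 KI pigs and 9.68, 7.16 and 8.51 CPM in WT pigs. All UCP1 KI pigs were below every WT pig, and the log2 fold change was -1.16 (SE 0.35, edgeR unadjusted p = 0.0117, adjusted p = 0.583), where 4.34% of all genes were called lower. *QRSL1*, the catalytic subunit, had a log2 fold change of -0.14 (SE 0.25), and *MTFMT*, which formylates the initiator methionyl transfer RNA of mitochondria, 0.12 (SE 0.24). *GATB* was not analysed here.

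Of 19 targets of ATF4 other than synthetases, 17 were tested, with a median log2 fold change of 0.28. The values ran from -1.73 to 1.33, with 10 positive and 7 negative. Of the 17, 2 were called higher and 1 lower, where 8.19% of all genes were called. *SLC3A2*, the heavy chain of several amino acid transporters, was at 76.0, 118 and 165 CPM in UCP1 KI pigs and 23.7, 31.6 and 87.4 CPM in WT pigs, overlapping through WT pig 3 (log2 fold change 1.33, SE 0.53). *ATF5*, a related transcription factor, was at 14.5, 9.98 and 8.37 CPM in UCP1 KI pigs and 4.71, 4.09 and 7.24 CPM in WT pigs, with separate groups (log2 fold change 1.03, SE 0.34). *PHGDH*, the first enzyme of serine synthesis, was called lower at a level below 2 CPM in every pig (log2 fold change -1.73, SE 0.63). *ATF3*, a stress-induced transcription factor, was at 309, 288 and 98.5 CPM in UCP1 KI pigs and 536, 324 and 489 CPM in WT pigs. All UCP1 KI pigs were below the WT pigs, but the gene did not pass the p limit (log2 fold change -0.96, SE 0.45). *PSAT1* and *PSPH*, further enzymes of serine synthesis, and *FGF21*, a secreted hormone, had values of -1.12 (SE 0.54), -0.97 (SE 0.51) and -0.95 (SE 0.67), also without a call. On the positive side, *SESN2*, a stress-induced regulator of mTORC1, had a value of 1.17 (SE 0.57), *TRIB3* 0.59 (SE 0.69), *SLC7A5* 0.49 (SE 0.45) and *CHAC1* 0.47 (SE 0.52), again without a call. *ASNS*, asparagine synthetase, had a log2 fold change of -0.22 (SE 0.42). ATF4 itself was not analysed here.

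Among markers of other cells, 2 of 4 fibroblast markers, the collagen genes *COL1A1* and *COL3A1*, were called lower. *DCN* and *PDGFRA* were not called and overlapped between the groups, with log2 fold changes of -0.39 (SE 0.24) and -0.08 (SE 0.36). The summed level of the 4, most of it collagen in WT pigs, was 171 to 343 CPM in UCP1 KI pigs and 549 to 883 CPM in WT pigs. Of 5 adipocyte markers 1, *LIPE*, the hormone-sensitive lipase, was called higher. *ADIPOQ*, *PLIN1* and *CIDEC*, more specific to adipocytes, had log2 fold changes of -1.26 (SE 0.75), -1.13 (SE 0.80) and -0.80 (SE 0.70) and were not called. *LEP* did not exceed 0.511 CPM, and the sum of the 5, in most pigs largely *LIPE*, was 28.0 to 53.4 CPM in UCP1 KI pigs and 22.9 to 43.8 CPM in WT pigs. Neither of the 2 endothelial markers measured was called, with sums of 207 to 362 CPM in UCP1 KI pigs and 204 to 370 CPM in WT pigs. Neither red cell marker measured was called, with sums of 11.4 to 75.8 CPM in UCP1 KI pigs and 104 to 180 CPM in WT pigs, which did not overlap. The part of these cells in the synthetase differences was not tested.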

How the data were processed

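Polyadenylated RNA of 6 pigs was sequenced as paired ends. According to the methods and the submitters' processing notes, the authors trimmed reads with Trimmomatic 0.36, mapped them to Sscrofa11.1 with HISAT2 2.0, computed gene values with StringTie 1.3.3b and tested counts with DESeq2 1.12.4. How the deposited raw counts per gene were made, the annotation release and the use of strand are not given in the sources used here. A transcript counted on the wrong gene of an overlapping or similar pair would change a value.

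From the deposited counts, genes were filtered by filterByExpr, scaled by TMM and tested across the whole table with edgeR 4.0.16 (R 4.3.3, glmQLFit and glmQLFTest, two-sided, Benjamini-Hochberg adjustment over 13402 genes), 3 pigs against 3. Calls used the limits of the study's methods, 0.05 and a log2 fold change of 0.5, with the 0.05 applied here to the unadjusted p. The methods do not say whether their value was adjusted. The code was tested on simulated data. CPM values used TMM factors, list means used log2(CPM + 1), and ratios within a pig used log2 of counts + 1. A level of 3 counts corresponded to 0.0795 to 0.110 CPM, a floor for counting error only. No gene lengths were used, so shares of counts and the order of genes by CPM also reflect transcript length. Nothing states separate litters or batches, and p-values measure only the spread between these pigs. Counts of same-group libraries differed beyond sampling noise, so none was a duplicate. Symbols without the final 1 in RefSeq were taken as the same gene, which placed 35 of 36 members.

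The members and lists were chosen with earlier results of these data known. A few items, 2 members among them, are not reported here by name but enter the counts and medians. Every other member is named. Values in each pig are given for members with an unadjusted p under 0.05, the 2 highest and 2 lowest log2 fold changes and the 3 highest mean CPM of each compartment, members close to the minimum of 10 counts and, chosen after their values were seen, other members whose groups did not overlap or whose value rested on 1 pig. Alternatives were DESeq2 1.42.0, other scalings, other count filters, a replicate block, leaving out each pig and, added after seeing the data, leaving out members that overlap another gene.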

Additional observations from a re-analysis of the deposited data

How the results depend on the processing

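*MARS1* was called under every alternative that kept it, and *LARS2*, *VARS1* and *YARS2* under every one that kept them and all 6 pigs. With library size as the only scaling, the median of all genes shifted by 0.25, 82.7% of calls were higher against 46.9%, 6 members were called (*AARS2* and *SARS1* added), and both the cytosolic and the mitochondrial median were 0.46. Under that scaling the sign turned for *IARS1* (0.26), *NARS1* (0.10), *QARS1* (0.19), *RARS1* (0.25), *CARS2* (0.072) and *FARS2* (0.22). With all genes of any count, *IARS1* was 0.0042. The same-numbered pigs' deviations correlated at 0.004, 0.094 and 0.283, against -0.20 to 0.13 for pigs of different numbers. With 3 pigs a group, these values cannot tell whether the replicate numbers pair the pigs. A replicate block gave 1114 genes and 4 members, a difference of medians of -0.0040 and -0.13 for *WARS2*. It moved *WARS1* to 0.98, *SARS2* to -2.62 and *MARS2* to -0.25, none of them called. The difference of medians was -0.025 over genes with 10 counts in every pig.

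Leaving out single pigs gave 678 genes (without UCP1 KI pig 2), 718 (without WT pig 2) to 1541 (without WT pig 3), and 2 (without UCP1 KI pig 3) to 5 members (without WT pig 3). Without UCP1 KI pig 2 the members called were *AARS2* and *MARS1*, higher, and *SARS2*, lower, the last against 0 counts in both UCP1 KI pigs. Without WT pig 3 they were *FARSA*, *LARS2*, *MARS1*, *NARS2* and *VARS1*. Cytosolic calls ran from 1 to 3 and mitochondrial calls from 1 to 2, the cytosolic median from 0.06 to 0.28, the mitochondrial median from 0.032 to 0.35 and the difference of medians from -0.11 to 0.12. Members whose sign turned ran from -0.042 to 0.41 (*AARS1*), -0.18 to 0.11 (*IARS1*), -0.11 to 0.24 (*LARS1*), -0.15 to 0.076 (*RARS1*), -0.13 to 0.25 (*TARS1*), -0.34 to 2.42 (*WARS1*), -0.18 to 0.058 (*FARS2*), -1.10 to 0.032 (*MARS2*), -0.26 to 0.21 (*RARS2*), -7.92 to 0.088 (*SARS2*, the lower end fitted against 0 counts in both UCP1 KI pigs and no measured fold), -0.084 to 0.40 (*VARS2*) and -0.50 to 0.35 (*WARS2*). Without the members that overlap another gene, *MARS1* and *YARS2* among them (an alternative chosen after seeing the data), 2 were called and the mitochondrial median was 0.12. The cause of these shifts was not tested. DESeq2 called 1309 genes and the same 4 members. Of the 34 named members, 11 kept direction and call under every alternative in which they were tested. With 3 pigs a group, standard errors from 0.21 to 1.59 limit what could be detected.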

Other observations

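The genes tested for other charging and repair steps and the elongation factors did not pass the limits. Of 6 tested genes for other charging and repair steps none was called. *SEPSECS*, which completes the selenocysteine transfer RNA, had a log2 fold change of 0.79 (SE 0.60), *PSTK*, the kinase acting before it, -0.90 (SE 0.47), and *TRNT1*, which adds the CCA end, -0.13 (SE 0.21). Of 7 elongation factors none was called, with a median of 0.21. *EEF1A2*, the muscle form of the factor that carries charged transfer RNA to the ribosome, was at 3037, 2741 and 2720.3 CPM in UCP1 KI pigs and 1743, 2197 and 3394 CPM in WT pigs, with WT pig 3 above every UCP1 KI pig. *TUFM*, its mitochondrial counterpart, had a log2 fold change of 0.22 (SE 0.25).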
